A study of Mus musculus with 12 samples.

Results

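Variation between mice of the same genotype was measured in gastrocnemius, the main muscle of the calf, from 12 mice aged 32 weeks. The mice formed 4 groups of 3. KO mice were heterozygous for a Cas9 deletion of 303 bp that took exons 2 and 3 of Gmppb. P32L mice were heterozygous for a C-to-T change at base 95 of the coding sequence, which puts leucine for proline at residue 32. R287Q mice were homozygous for a G-to-A change at base 860 of the coding sequence, which puts glutamine for arginine at residue 287. WT mice carried no engineered allele. All ate a standard diet, and the labels used here give no sex, litter, hour of collection or batch.

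The values were TPM, a length-corrected share of all transcripts, which gives all libraries the same total. A gene was a member if it averaged at least 5 TPM over the 12 mice, which 3842 of 30488 genes did. Its deviation in a mouse was log2(TPM + 1) less the mean of that mouse's own group, so that no difference between genotypes entered. Tra2a (4.997 TPM) and Gm27616 (4.994 TPM) lay just below the limit, and Smarce1 (5.0003 TPM) and Rps2-ps8 (5.003 TPM) just above it. Gmppb itself, at 3.02 to 4.42 TPM, was not a member. Values of 3 mice are given below in the order of their replicate number, and an SD is the pooled within-group SD of log2(TPM + 1) on 8 degrees of freedom.

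A muscle is a mixture. Slow and fast fibres differ in the isoforms of myosin, troponin and calcium pump that they build, and adipocytes, macrophages, fibroblasts, endothelial cells and blood lie between them. Muscle also carries transcripts that change within minutes to hours, such as immediate-early and heat shock genes. The labels call the sample muscle cells, but whole tissue was taken: Myh4, the fast myosin heavy chain of type IIB fibres, stood at 2397 to 4869 TPM, beside transcripts of blood, fat and macrophages. In such bulk samples more cells of a type and more RNA per cell cannot be told apart.

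Most genes were alike between mice of a group. The median SD of the 3842 members was 0.15, and 5.80% of them (223) differed more than 2-fold in TPM + 1 between mice of at least 1 group. A set of 46 members differed more than 4-fold in TPM + 1, 103 had an SD over 0.5 and 26 an SD over 1. The steadiest genes with at least 50 TPM were led by mt-Co1 and mt-Nd4, mitochondrially encoded subunits of the respiratory chain (SD 0.03 and 0.04), followed by mt-Cytb, the nuclear gene Cdv3, mt-Nd2 and mt-Tp. Mitochondrially encoded transcripts filled 53.0% to 58.4% of the fixed total, and their steadiness depended on the scaling. The mean deviation of the 15 listed ones ran from -0.06 to 0.07 as deposited. After median-of-ratios scaling it ran from -0.17 to 0.18. Slow-fibre and adipocyte genes made up much of the other end, as the plot of spread against level shows.

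**Figure D1:**
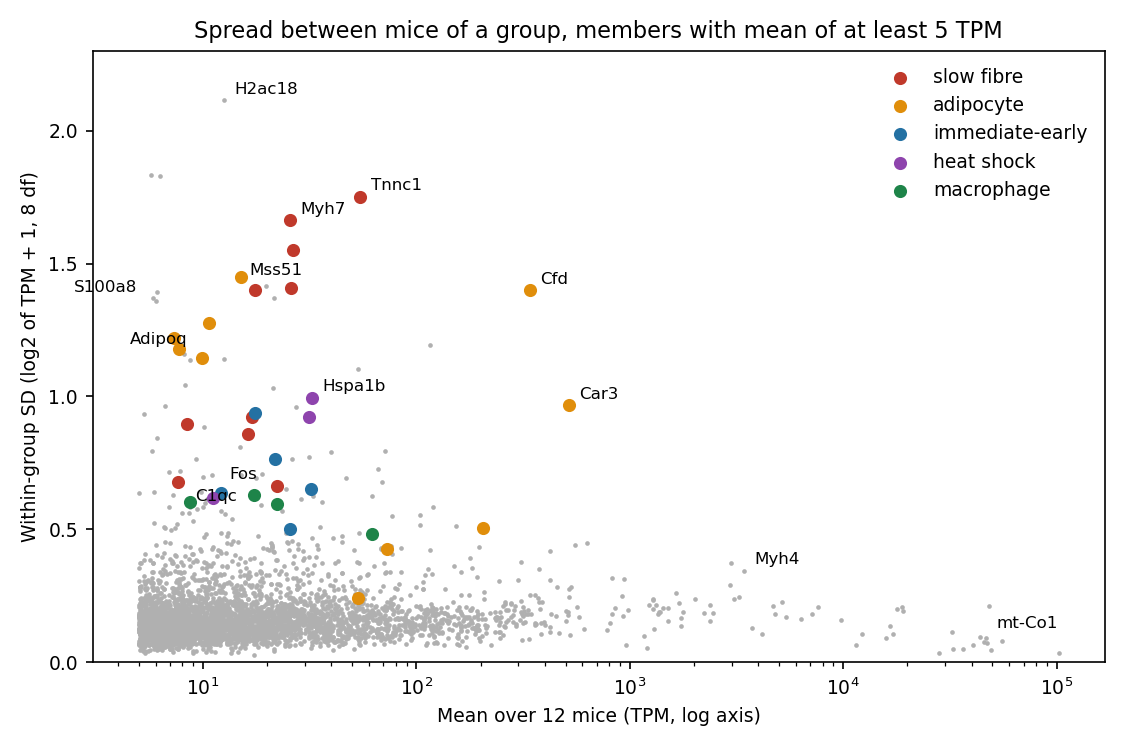
Each point is 1 of the 3842 members, with its mean over 12 mice in TPM on a log axis and its pooled within-group SD of log2(TPM + 1). Slow-fibre (Tnnc1 1.75, Myh7 1.66) and adipocyte genes (Cfd 1.40) stand far above the median of 0.15.

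The residual variance of each gene was set against the trend that limma fits to the variance of all 9152 genes that averaged 1 TPM or more. No gene was called at an adjusted p under 0.05 (0 of 9152; percent called 0; lowest adjusted p 0.35). At an unadjusted p under 0.05, 4.79% of members (184) lay above the trend, against 6.52% of all genes (597). limma's fit without robustness also called 0, whereas a fit on the members alone called 23, among them Tnnc1, Myh7, Myl2, Cfd, Adipoq and H2ac18. The genes with the largest SD are therefore given as a description, chosen by their values. The 10 slow-fibre genes and 9 of the 10 adipocyte genes were among the 184 members at an unadjusted p under 0.05.

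Contractile genes of slow fibres varied widely and together. Myh7 (chr14:54970684-54994626, minus strand, mm10) encodes the slow myosin heavy chain, and Tnnc1 encodes the slow troponin C that binds calcium on the thin filament. Myh7 had 20.4, 2.02 and 53.5 TPM in the KO mice, 11.7, 19.5 and 0.583 TPM in the P32L mice, 50.8, 56.8 and 7.48 TPM in the R287Q mice and 25.97, 18.6 and 38.7 TPM in the WT mice. Tnnc1 had 46.7, 3.99 and 127 TPM in the KO mice, 25.6, 43.7 and 2.66 TPM in the P32L mice, 117, 115 and 15.1 TPM in the R287Q mice and 47.3, 41.4 and 70.8 TPM in the WT mice. Mice KO-2, P32L-3 and R287Q-3 were the low mice of their groups for both genes, while the WT mice differed least. Myl2 (SD 1.55) and Myl3 (SD 1.40), the slow myosin light chains, Tnnt1 (SD 1.41), slow troponin T, and Atp2a2 (SD 0.86), the slow-fibre calcium pump, had the same low mice. The 14 listed slow-fibre genes gave 10 members, and their SD ran from 0.66 to 1.75 (median 1.16, against 0.15 over all members). Of the others, Myh7b, Tnni1, Casq2 and Myl6b averaged under 5 TPM.

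**Figure D2:**
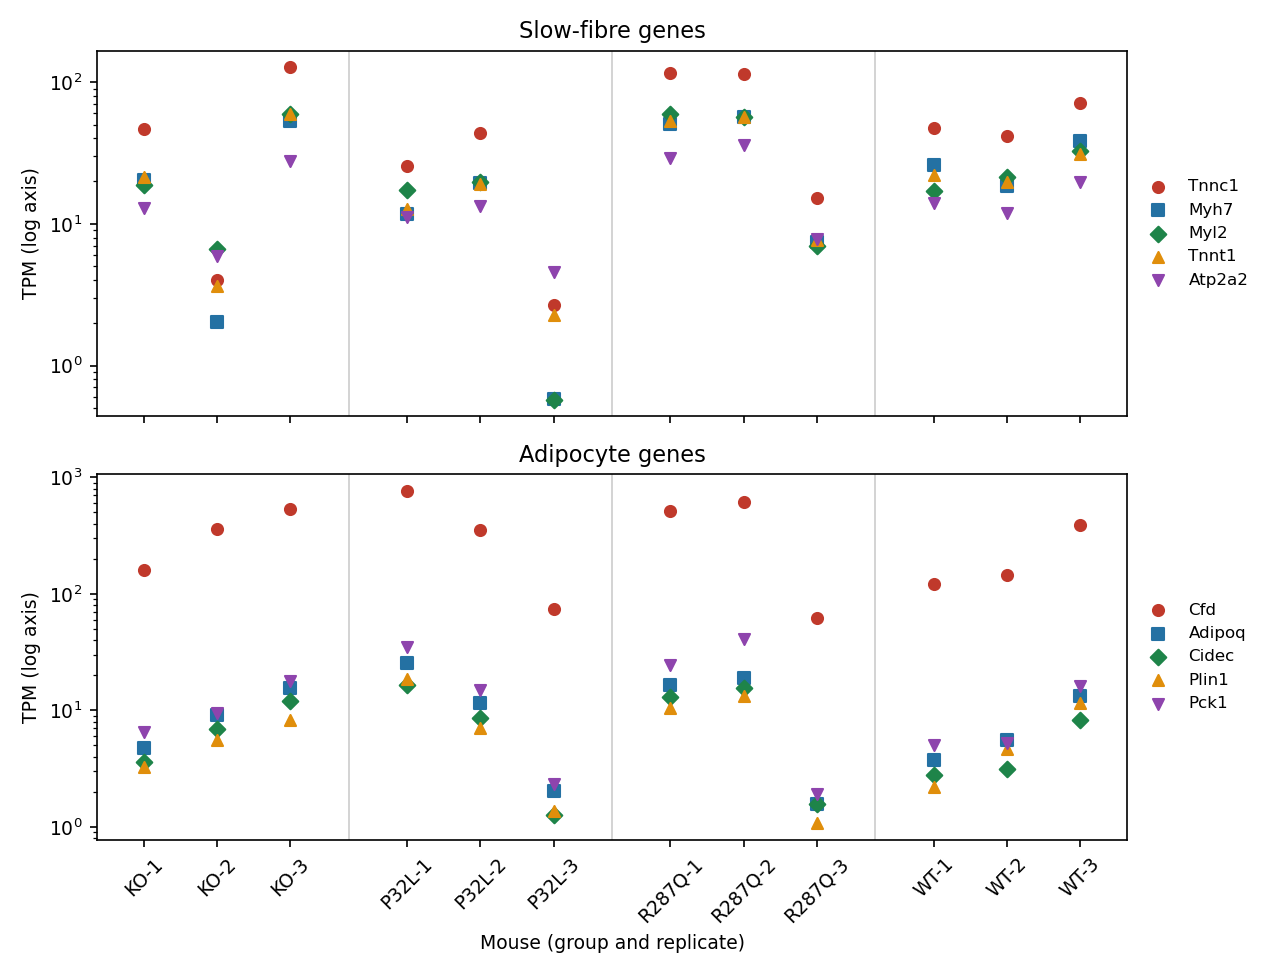
TPM on a log axis of 5 slow-fibre genes (top) and 5 adipocyte genes (bottom) in each of the 12 mice, with vertical lines between groups. Mice P32L-3 and R287Q-3 are lowest in their groups for all 10 genes, and KO-2 for the slow-fibre genes alone.

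These genes moved as a block. A slope gives how many log2 units a gene differed between mice of a group for each log2 unit of an anchor gene, tested with limma over 9151 genes and adjusted by Benjamini-Hochberg; a gene rose or fell with the anchor if its slope passed at an adjusted p under 0.05. With Myh7 as anchor, 11 genes rose with it (percent called 0.12) and 0 fell; 1424 genes had an unadjusted p under 0.05, and the fit with a robust prior also called 11. Members made up 9 of the 11, the other 2 being Tnni1, slow troponin I, and Crip3, and 6 of the 9 other slow-fibre members were among them. The slope was 1.05 ± 0.0334 (SE, adjusted p = 2.47e-07) for Tnnc1, 0.84 ± 0.0424 (SE, adjusted p = 1.15e-05) for Tnnt1 and 0.54 ± 0.0476 (SE, adjusted p = 0.00121) for Tpm3, slow tropomyosin. The count of 11 was 18 without KO-1, 17 without KO-2 and 7 without P32L-3. Over pairs of slow-fibre members the median correlation was 0.94 and 44 of 45 pairs exceeded 0.8. Tpm3-rs7 was called too, but 23.2% of the 50-base words of Tpm3 transcripts occur in it, so their reads may not be separable. Exons of Myh7 overlap the antisense gene Mhrt, and the library kit does not mark strand, so their reads cannot be told apart either. Exons of Myl2 and Myl3 likewise overlap Ccdc63 and Pth1r on the other strand.

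Fast-fibre genes varied far less. The 15 fast-fibre members had a median SD of 0.23, and Myh2 (SD 0.52), the myosin of type IIA fibres, led them, ahead of Myh1 (SD 0.38) and Myh4 (SD 0.35). Myh4 had 3392, 4869 and 2397 TPM in the KO mice, 3594, 3113 and 4692 TPM in the P32L mice, 2643, 2631 and 3592 TPM in the R287Q mice and 4067, 3157 and 2959 TPM in the WT mice. Mouse KO-2 was the highest KO mouse for Myh4 and the lowest for Myh7, and P32L-3 and R287Q-3 stood likewise in their groups. The mean fast-fibre deviation was opposite in sign to the slow-fibre one in 11 of 12 mice, but in 8 of 12 once the common shift described at the end was scaled out. None of the 15 was called with Myh7; Myh4 had a slope of -0.19 ± 0.0308 (SE, adjusted p = 0.0892). In the fit on members alone, 3 fast-fibre genes fell with rising Myh7, namely Myh4, Actn3 and Mybpc2.

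Adipocyte genes formed the second block. Adipoq (chr16:23146536-23158028, plus strand, mm10) encodes the hormone adiponectin, and Cfd the adipocyte protease adipsin. Adipoq had 4.72, 9.12 and 15.6 TPM in the KO mice, 25.2, 11.6 and 2.04 TPM in the P32L mice, 16.6, 19.1 and 1.58 TPM in the R287Q mice and 3.72, 5.57 and 13.2 TPM in the WT mice. Cfd had 161, 361 and 538 TPM in the KO mice, 764, 352 and 73.5 TPM in the P32L mice, 517, 608 and 62.1 TPM in the R287Q mice and 122, 144 and 391 TPM in the WT mice. Mice P32L-3 and R287Q-3 were low again, while KO-2 lay between the other KO mice and WT-3 stood above the other WT mice. With Adipoq as anchor 75 genes rose (percent called 0.82) and 4 fell (0.0437; Gm6344, Gm13071, Lig3 and Gm43859, all under 5 TPM), and 34 members were among those that rose. Slopes were 1.10 ± 0.0344 (SE, adjusted p = 7.81e-08) for Cfd, 0.92 ± 0.0315 (SE, adjusted p = 8.20e-08) for Cidec and 0.95 ± 0.0467 (SE, adjusted p = 2.02e-06) for Plin1, the last 2 being proteins of the lipid droplet. Retn, which encodes resistin (slope 0.89 ± 0.0395 SE, adjusted p = 8.44e-07), and Cyp2e1, a cytochrome P450 (slope 1.07 ± 0.0351 SE, adjusted p = 7.81e-08), rose with them. In all, 6 of the 9 other adipocyte members were called, which held at 5 to 7 whichever mouse was left out.

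Some genes of fat synthesis rose with Adipoq. Scd1, the desaturase that makes monounsaturated fatty acids, and Fasn, fatty acid synthase, had slopes of 0.90 ± 0.0805 (SE, adjusted p = 1.52e-04) and 0.79 ± 0.0623 (SE, adjusted p = 5.71e-05) on Adipoq, and 3 of 9 lipid-synthesis members were called. The median slope of the 9 was 0.03 and the median correlation over their pairs 0.18. Scd1 had 71.8, 105 and 120.2 TPM in the KO mice, 227, 119.8 and 28.9 TPM in the P32L mice, 178, 195 and 36.9 TPM in the R287Q mice and 37.8, 68.6 and 209 TPM in the WT mice. The low mice were again P32L-3 and R287Q-3 in the mutant groups, with WT-1 lowest among WT. Not every listed gene followed: Car3, carbonic anhydrase 3, abundant in adipocytes and also in muscle, reached 615 TPM in R287Q-3, where Adipoq was 1.58 TPM. Among the brown-fat markers, Cox7a1 and Cox8b were members and the other 5 measured genes averaged under 5 TPM. Neither Cox7a1 nor Cox8b had a positive slope on Adipoq (median -0.04).

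The 2 blocks were called together in 1 direction of the fit. Of the 10 slow-fibre members, 5 were called with Adipoq, but this was 1 without R287Q-3, 3 without P32L-1, P32L-3, R287Q-1 or R287Q-2, and 10 without KO-2. With Myh7 as anchor 0 of the 10 adipocyte members were called, and 2 without KO-2. All 10 slopes were positive, against 1028 of 3841 members in all. These 10 genes also varied together (median correlation 0.84), so their signs are not separate observations. For Myh7 and Adipoq Pearson r was 0.71 (exact within-group permutation p = 0.044, adjusted 0.486), Spearman rho was 0.66 (exact p = 0.0463, adjusted 0.506), and r was 0.78 without the 2 mice farthest from the median of Myh7. None of 36 pairs of the 9 anchor genes passed at an adjusted p under 0.05 by Pearson r or by Spearman rho, and the smallest p that 1296 arrangements allow is 0.000772. Pairs with an unadjusted p under 0.05 included Adipoq with Pdk4, the kinase that limits glucose oxidation, for which Pearson r was 0.71 (exact within-group permutation p = 0.0332, adjusted 0.486), Spearman rho was 0.69 (exact p = 0.0378, adjusted 0.506), and r was 0.71 without the 2 mice farthest from the median of Adipoq.

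**Figure D3:**
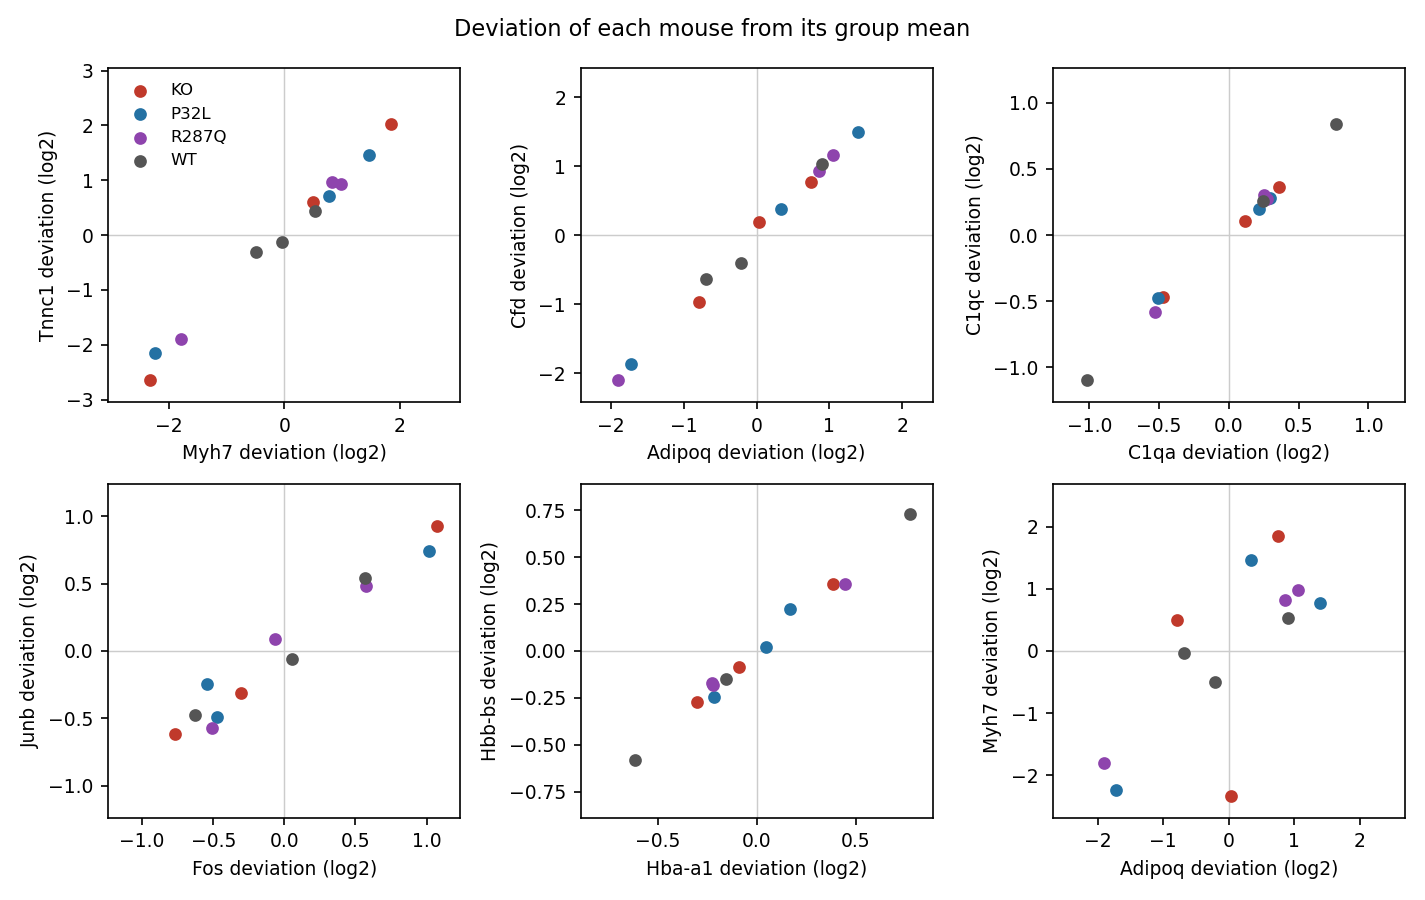
Deviations from the group mean (log2) of 6 gene pairs, 1 point per mouse, coloured by group. Partners within a set (Tnnc1 on Myh7, Cfd on Adipoq, C1qc on C1qa, Junb on Fos, Hbb-bs on Hba-a1) lie close to a line, and Myh7 on Adipoq scatters more, with r of 0.71.

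Macrophage genes were the next set. C1qa, C1qb and C1qc encode the chains of complement C1q, made largely by macrophages. C1qa had 22.2, 40.3 and 33.97 TPM in the KO mice, 23.9, 22.6 and 13.3 TPM in the P32L mice, 12.9, 22.8 and 23.1 TPM in the R287Q mice and 26.03, 6.85 and 17.8 TPM in the WT mice. C1qc had 16.6, 30.3 and 25.2 TPM in the KO mice, 19.3, 18.1 and 10.99 TPM in the P32L mice, 9.07, 17.6 and 17.2 TPM in the R287Q mice and 22.8, 5.23 and 14.9 TPM in the WT mice. Mouse WT-2 was the lowest WT mouse and WT-1 the highest, and KO-1, P32L-3 and R287Q-1 were lowest in their groups. With C1qa as anchor 396 genes rose (percent called 4.33) and 9 fell (0.0983), 143 and 3 of them members. With mitochondrial genes left out 198 rose and 9 fell, and with median-of-ratios scaling 142 rose and 25 fell. All 9 other macrophage members were called, with slopes of 1.05 ± 0.045 (SE, adjusted p = 5.38e-06) for C1qc, 0.96 ± 0.0487 (SE, adjusted p = 1.40e-05) for C1qb and 0.80 ± 0.0547 (SE, adjusted p = 1.61e-04) for Lyz2, the lysozyme of myeloid cells. Without WT-2 3 of the 9 were called and the count over all genes was 38; without WT-1 these were 4 and 61, against 9 and 405 with every mouse. The count over all genes lay between 185 and 268 without KO-1, KO-2, P32L-1, P32L-3, R287Q-1 or R287Q-2. The 7 listed macrophage genes under 5 TPM included the lineage markers Csf1r, Adgre1 and Cd163, and the median correlation of the 10 members was 0.93.

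Matrix genes formed a further list. Col1a1 and Col1a2 encode the chains of type I collagen, and Col3a1 that of type III. Col1a1 had 34.98, 52.3 and 45.5 TPM in the KO mice, 42.5, 32.9 and 28.8 TPM in the P32L mice, 28.3, 46.8 and 69.2 TPM in the R287Q mice and 52.8, 31.1 and 24.2 TPM in the WT mice. R287Q-3 and WT-1 were the high mice of their groups, and the KO and P32L mice differed by less. Of 14 matrix members, 8 were called with C1qa (3 without WT-2, 5 without WT-1). In the other direction 0 of 10 macrophage members were called with Col1a1, and 6 without WT-2. With Col1a1 as anchor 1609 genes rose (percent called 17.6) and 20 fell (0.219), 810 and 5 of them members, so that 9 of the 13 other matrix members called is read against that share. Col1a2 had a slope of 0.95 ± 0.0481 (SE, adjusted p = 5.51e-05). The count of 1629 was 4 (3 rose, 1 fell) with mitochondrial genes left out of the total and 11 (7 rose, 4 fell) with median-of-ratios scaling, under each of which 1 matrix gene was called. The count was 1 without R287Q-3, 3 without R287Q-1 or WT-1, 52 without WT-3 and 476 to 932 without KO-1, KO-2, P32L-1 or R287Q-2, and 1 matrix gene was called without each of the first 3 of these mice. Over pairs of the 14 matrix members the median correlation was 0.84 as deposited, against 0.39 over all pairs of members. It was 0.77 with mitochondrial genes left out, against 0.07, and 0.75 with median-of-ratios scaling, against 0.02. Between the anchors C1qa and Col1a1 themselves Pearson r was 0.65 (exact within-group permutation p = 0.081, adjusted 0.486), Spearman rho was 0.78 (exact p = 0.0255, adjusted 0.506), and r was 0.67 without the 2 mice farthest from the median of C1qa.

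Immediate-early genes, transcription factors and signal genes induced within minutes of a stimulus, differed strongly between mice. Fos (chr12:85473890-85477273, plus strand, mm10) and Junb encode partner proteins of the AP-1 factor. Fos had 17.2, 64.4 and 24.1 TPM in the KO mice, 25.1, 23.9 and 72.2 TPM in the P32L mice, 6.17, 2.38 and 3.62 TPM in the R287Q mice and 11.03, 7.43 and 4.25 TPM in the WT mice. Junb had 11.8, 36.3 and 14.8 TPM in the KO mice, 10.001, 12.01 and 24.8 TPM in the P32L mice, 7.48, 3.09 and 5.48 TPM in the R287Q mice and 9.89, 6.19 and 4.39 TPM in the WT mice. The highest mice of their groups for Fos were KO-2, P32L-3, R287Q-1 and WT-1, and Junb had the same 4. With Fos as anchor 7 genes rose (percent called 0.0765) and 0 fell; 572 genes had an unadjusted p under 0.05, and the robust prior called 8. With mitochondrial genes left out 5 rose and 4 fell, and with median-of-ratios scaling 6 rose and 2 fell. The slopes were 0.82 ± 0.062 (SE, adjusted p = 9.81e-04) for Junb, 0.63 ± 0.0623 (SE, adjusted p = 0.00375) for Btg2, an antiproliferative gene, and 0.55 ± 0.07 (SE, adjusted p = 0.0227) for Errfi1, a feedback inhibitor of the EGF receptor. Dusp1 and Fosl2, immediate-early genes under 5 TPM, were among the calls as well. Exons of Junb overlap Prdx2 on the other strand, and reads from the overlap cannot be assigned without strand. The count of 7 was 1 without KO-2, 3 without KO-1, P32L-1, P32L-3, R287Q-2 or WT-3, 4 without WT-1 or WT-2 and 12 without P32L-2. Of 13 other immediate-early members, 2 were called, 1 without KO-2. All 14 members had an SD above the member median, and Egr1, a zinc finger factor, reached 0.94 with a slope of 0.98 ± 0.233 (SE, adjusted p = 0.352) that did not pass. Over pairs of these 14 the median correlation was 0.72 as deposited, against 0.39 over all pairs of members. It was 0.61 with mitochondrial genes left out, against 0.07, and 0.66 with median-of-ratios scaling, against 0.02.

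Heat shock genes encode chaperones, and Hspa1a and Hspa1b give the inducible HSP70. Hspa1b had 10.96, 82.7 and 42.02 TPM in the KO mice, 45.03, 41.9 and 82.5 TPM in the P32L mice, 16.4, 13.7 and 8.52 TPM in the R287Q mice and 27.5, 4.39 and 12.4 TPM in the WT mice. KO-1 and WT-2 were the low mice of their groups and KO-2 and P32L-3 the high mice of theirs. Their transcripts share 62.3% of the 50-base words of Hspa1b, so reads may be split between them, and the call of Hspa1a (slope 0.92 ± 0.0369 SE, adjusted p = 1.90e-06) may not be independent of that. With Hspa1b as anchor this was the only gene called (percent called 0.0109), so 1 of 15 other heat shock members. Without WT-3 the count was 3. With mitochondrial genes left out 2 genes rose and 1 fell, and with median-of-ratios scaling 5 rose and 4 fell. Dnajb1, the co-chaperone HSP40, had a slope of 0.54 ± 0.0976 (SE, adjusted p = 0.132) and did not pass. Over pairs of the 16 heat shock members the median correlation was 0.71 as deposited, against 0.39 over all pairs of members. It was 0.67 with mitochondrial genes left out, against 0.07, and 0.64 with median-of-ratios scaling, against 0.02.

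The promoters of the 2 HSP70 genes are shown because these copies had the largest SD among heat shock members. They are the 250 bases before each transcript start from RefSeq (GRCm38.p6), chr17:34972157-34972406 and chr17:34959239-34959488, both on the minus strand, with the heat shock element GAANNTTC in capitals, 104 bases before the start.
Hspa1a: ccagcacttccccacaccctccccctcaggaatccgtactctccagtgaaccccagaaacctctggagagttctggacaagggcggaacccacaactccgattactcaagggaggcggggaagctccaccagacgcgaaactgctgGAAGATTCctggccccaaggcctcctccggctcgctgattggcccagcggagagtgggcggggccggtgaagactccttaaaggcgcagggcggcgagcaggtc
Hspa1b: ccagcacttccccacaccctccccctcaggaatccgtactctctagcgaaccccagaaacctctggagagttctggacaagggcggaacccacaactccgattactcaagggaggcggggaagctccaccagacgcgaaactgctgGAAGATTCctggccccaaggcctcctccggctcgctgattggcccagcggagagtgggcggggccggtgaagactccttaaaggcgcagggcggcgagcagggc
The windows were identical at 247 of 250 positions (98.8%), so the match in 1 copy is not independent of that in the other. Both copies count among the 9 genes given next. Of the 13 heat shock members with a promoter entry, 9 held this motif on either strand in the window of 250 bases before to 50 after the start, against 9.04% of all genes (2442 of 27025). It was picked after the hits were seen, from 99 combinations of 11 motifs and 9 lists. The next largest excesses over all genes were the CCAAT box in 5 of 5 erythroid and 5 of 6 clock genes, against 41.1% of all genes, and the E-box CACGTG in 3 of 6 clock genes, against 8.09%. A match is a description of letters and says nothing of binding.

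Haemoglobin genes, transcripts of red cells and their precursors, moved almost as one. Hba-a1 had 614, 712 and 991 TPM in the KO mice, 528, 689 and 634 TPM in the P32L mice, 477, 757 and 476 TPM in the R287Q mice and 890.2, 339 and 467 TPM in the WT mice. WT-1 and WT-2 were the extremes of the WT group, and KO-3 and R287Q-2 the high mice of theirs. With Hba-a1 as anchor 10 genes rose (percent called 0.109) and 3 fell (0.0328). With mitochondrial genes left out 24 rose and 1 fell, and with median-of-ratios scaling 28 rose and 30 fell. Hba-a2 (slope 0.98 ± 0.0632 SE, adjusted p = 2.44e-04), Hbb-bs (slope 0.92 ± 0.0663 SE, adjusted p = 3.30e-04) and Hbb-bt (slope 0.96 ± 0.0732 SE, adjusted p = 4.03e-04) were called, and Bpgm, an enzyme of red cells, was not. Hba-a2 shares 72.3% of the 50-base words of Hba-a1, and Hbb-bt 53.2% of those of Hbb-bs. The count of 13 was 1 without WT-1, 3 without WT-2, 4 without R287Q-2 and 5 to 8 without KO-1, KO-3, R287Q-3, WT-3 or any 1 of the P32L mice. Without WT-1, 1 of the 3 globin calls was left. Alas2, Slc4a1 and Ube2l6 averaged under 5 TPM.

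No listed clock or fuel gene was called with its anchor. Dbp, a clock output factor with a strong daily rhythm, varied with an SD of 0.16, near the member median of 0.15. Its exons overlap Sphk2 on the other strand, and reads from the overlap cannot be assigned without strand. Dbp had 25.6, 30.1 and 22.4 TPM in the KO mice, 36.1, 32.6 and 40.5 TPM in the P32L mice, 39.1, 32.1 and 33.3 TPM in the R287Q mice and 22.8, 26.4 and 27.03 TPM in the WT mice. No mouse stood far from its group. Of 18 measured clock genes 8 were members, while Arntl, Clock, Npas2, Per2, Per3, Cry1, Cry2, Hlf, Nfil3 and Ciart averaged under 5 TPM. None of 7 other clock members was called with Dbp, for which 590 genes had an unadjusted p under 0.05 and 1 gene under 5 TPM, Snord7, fell (percent called 0.0109). Pdk4 had 39.8, 75.9 and 117 TPM in the KO mice, 106, 40.01 and 47.4 TPM in the P32L mice, 100.1, 88.2 and 52.4 TPM in the R287Q mice and 17.04, 32.01 and 24.2 TPM in the WT mice. KO-3 and P32L-1 were the high mice of their groups, KO-1 and WT-1 among the low ones. None of 16 other fuel-switch members was called with Pdk4 (only Gm7363 and Gm26397, both under 5 TPM, rose, percent called 0.0219), with 705 genes at an unadjusted p under 0.05. The Pdk4 count was 1 without WT-1 or WT-3 and 0 without any other mouse; the Dbp count was 2 without R287Q-3 and 0 without KO-2, KO-3, P32L-2, P32L-3, R287Q-1 or WT-1. All 16 other fuel-switch members had a positive slope on Pdk4, as did 2442 of all 3841 members tested. Other lists were as one-sided, with 39 of 40 ribosomal and 30 of 31 complex I members positive. Over pairs of the 17 fuel-switch members the median correlation was 0.74 (52 of 136 pairs over 0.8), 0.69 with mitochondrial genes left out and 0.65 with median-of-ratios scaling. That of the 8 clock members was 0.30, -0.01 and 0.10.

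**Figure D4:**
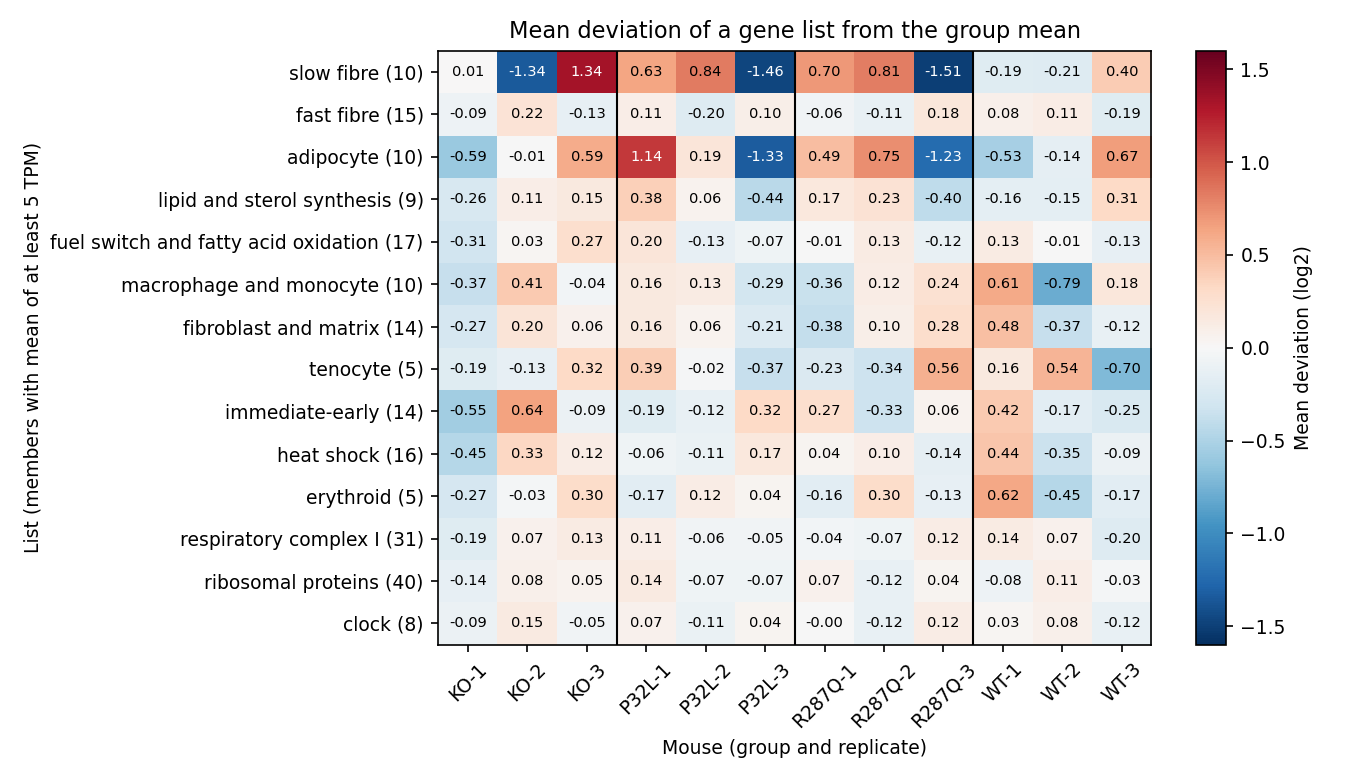
Mean deviation (log2) of the members of 14 gene lists in each of the 12 mice, with the number of members in brackets and vertical lines between groups. The slow-fibre list runs from -1.51 in R287Q-3 to 1.34 in KO-3 and the adipocyte list from -1.33 in P32L-3 to 1.14 in P32L-1, while complex I, ribosomal and clock lists deviate by at most 0.20.

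Other lists covered further cell types and processes. Median SDs of their members were 0.91 for the 2 lymphocyte members, 0.63 for tendon genes, 0.44 for glucocorticoid and metallothionein genes, 0.33 for Z-disc genes, 0.30 for smooth muscle, 0.26 for denervation genes, 0.21 for interferon genes and 0.20 for endothelial genes. They were 0.20 for fuel-switch genes, 0.19 for glycolysis, 0.19 for clock genes and 0.16 for complex I. The unfolded protein list (0.17), the atrophy list (0.15), ribosomal proteins (0.13), polyamine genes (0.13), the proteasome (0.11) and the mitochondrial genome (0.09 as deposited) lay at or near the member median of 0.15 or below it. Chac1, a glutathione-degrading enzyme induced by ATF4, led the unfolded protein list with an SD of 0.79. Chac1 had 61.4, 95.8 and 62.2 TPM in the KO mice, 84.6, 20.6 and 57.6 TPM in the P32L mice, 23.2, 10.6 and 23.2 TPM in the R287Q mice and 5.35, 23.5 and 11.7 TPM in the WT mice. KO-2, P32L-1 and WT-2 were the highest mice of their groups, and R287Q-2 was the lowest of the R287Q mice. Mt2, a metallothionein that binds zinc and copper, had an SD of 0.59, and Ddit4, an inhibitor of mTORC1, 0.51. The Y-linked genes Ddx3y and Eif2s3y were steady (SD 0.09 and 0.08). No epidermal marker of 8 averaged 5 TPM, and of 8 satellite cell markers Itga7 alone did.

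Mice differed in how far they stood from their group. R287Q-3 held 11.9% and WT-1 11.5% of all squared deviations over members, against 5.26% in P32L-2, and each group held 22.8% to 28.5%. Over all 3842 members WT-1 was the most deviant mouse for 733, KO-1 for 552 and R287Q-3 for 488, against 251 for WT-2 and 119 for P32L-3. Among the 100 members with the largest SD, R287Q-3 was the most deviant mouse for 23, WT-2 for 16, P32L-3 for 13 and WT-1 for 4. Only 1 member, Cd209f, a lectin of macrophages, had over 50% of its squares in a single mouse (WT-2). Centring on the group mean spreads a single outlier over the other mice of its group, which caps this share. The count therefore does not show how often a single mouse drives the spread of a gene. The first principal component of the deviations took 33.7% and was led at its high end by Tnnc1, Myh7, Myl2, Tnnt1 and Pck1 and at its low end by H2ac18, Egr1, Fos and Junb; R287Q-3 was lowest (-0.53) and WT-3 highest (0.38). Components 2 and 3 took 23.9% and 15.6%.

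Beneath these sets lay a shift common to most genes. Over members the median deviation of a mouse ran from -0.11 in KO-1 to 0.11 in WT-1, and mitochondrially encoded transcripts took 53.0% (KO-2) to 58.4% (WT-3) of the TPM. A further 19.6% to 21.0% went to 7 pseudogenes that are nuclear copies of mitochondrial genes, and the setting with mitochondrial genes left out removed these 7 along with the 37 mitochondrial genes. In the KO, P32L and WT groups the mouse with the larger share had the lower median deviation, and in R287Q the mouse with the smallest share had the highest. Its part in the other results was not tested beyond the scalings given here. Over all 7378561 pairs of members the median correlation was 0.39, and it was 0.07 with mitochondrial genes left out and 0.02 with median-of-ratios scaling. The lists differed in how the scalings moved them: the median of complex I was 0.80 as deposited, 0.53 with mitochondrial genes left out and 0.54 after median-of-ratios scaling, and that of the proteasome 0.76, 0.21 and 0.34. That of the mitochondrial genome was 0.27 as deposited and 0.78 after median-of-ratios scaling. Their calls with Col1a1, 12 of 31 and 7 of 24, were 0 under both scalings. The medians of the slow-fibre (0.94), macrophage (0.93), adipocyte (0.84) and ribosomal lists (0.79) were 0.94, 0.91, 0.87 and 0.80 after median-of-ratios scaling.

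**Figure D5:**
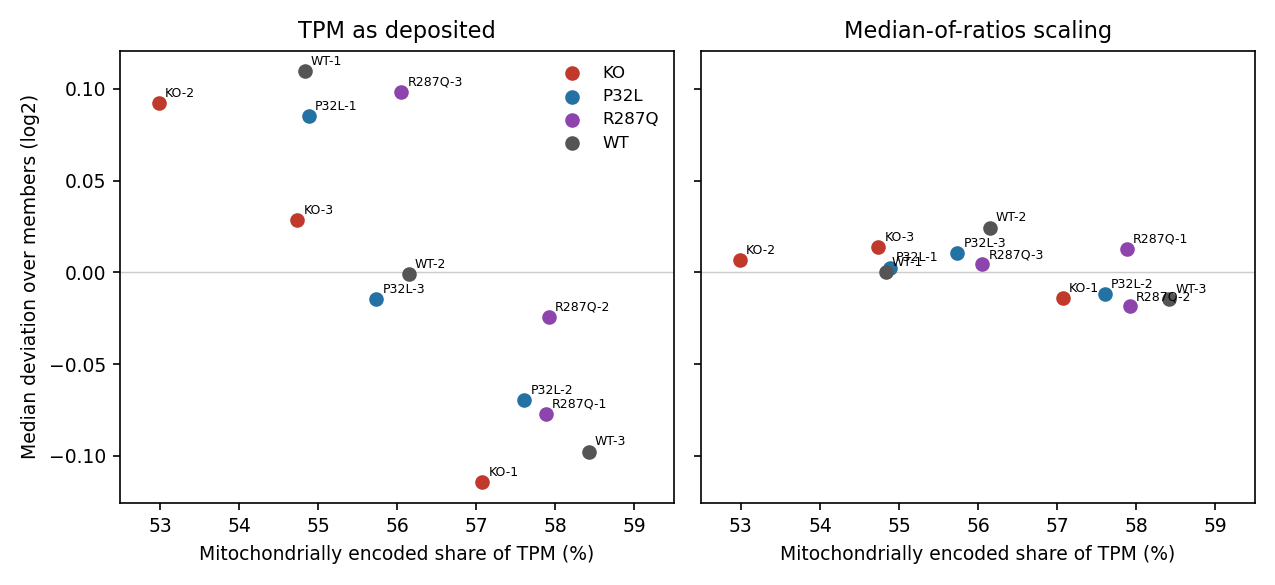
Median deviation over all members (log2) against the mitochondrially encoded share of TPM (%), 1 point per mouse, as deposited (left) and after median-of-ratios scaling (right). As deposited the points span -0.11 to 0.11; after scaling they span -0.02 to 0.02.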

How the data were processed

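RNA was sequenced from 100 mg of gastrocnemius per mouse, with Trizol isolation, 2 µg of RNA per library and an NEBNext Ultra kit, per the labels' protocols. FastQC, HISAT2, StringTie, DESeq2 and build mm10 are named in the submitters' processing notes; tool versions and annotation: not given in the sources used here. The authors deposited log2 values, whose inverse less 1 sums to between 997591 and 998739 per library, so they were read as log2(TPM + 1). What "adj" in the table's name adjusts is not stated. TPM keeps no depth, which is therefore unknown, and no counting interval is given. Of the values, 23.9% to 30.3% per library were 0, which can be a failed estimate.

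Genes averaging 1 TPM or more (9152) were fitted with limma 3.58.1 (R 4.3.3), with 1 mean per group and an intensity trend. Spread was the upper tail of the residual variance under limma's robustly fitted prior (3.38 prior degrees of freedom). Slopes on 9 anchor genes, each the first of its list with at least 5 TPM, were added to the group means. Benjamini-Hochberg adjustment ran over all genes of a fit. Anchor pairs were tested by exact two-sided permutation within groups. Samples are separate mice per the labels.

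Members, 33 lists and tests were chosen with earlier results of these data known. Named genes were those with the largest SD, the 5 smallest p per anchor and direction among called members, the 3 largest SD per list, the 10 steadiest and the leading component loadings; predicted models were left out. No gene was called for spread, so the 25 with the largest SD were used, chosen after their values were seen, as were motifs and the counts per list under other settings. Alternatives were the pseudocount 0.1, the minimum TPM, both scalings, each mouse left out, a replicate block and other variance priors. The scripts were tested on simulated data with normal noise at the trend SD of each gene. Real genes spread around that trend, so the power of the tests in these data was not measured. A few results on single listed genes are not reported here. Symbols matched GENCODE M21 for 29334 genes (96.2%).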

Additional observations from a re-analysis of the deposited data

How the results depend on the processing

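With only members fitted the spread count was 23 and the anchor counts were 35 (Adipoq), 4 (Fos), 128 (C1qa), 972 (Col1a1), 3 (Hspa1b), 0 (Pdk4) and 5 (Hba-a1). Without a filter Col1a1 had 578, Dbp 0 and Pdk4 0, and with a pseudocount of 0.1 Dbp had 0. With mitochondrial genes left out the counts were 207 (C1qa), 4 (Col1a1), 3 (Hspa1b) and 25 (Hba-a1); with median-of-ratios scaling they were 167, 11, 9 and 58, and 0 for Dbp and Pdk4. A robust prior gave 2 for Hspa1b. The cause of these changes was not tested.

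Leaving out each mouse in turn gave 7 to 18 genes for Myh7, 60 to 80 for Adipoq, 1 (without KO-2) to 12 for Fos, 38 (without WT-2) to 600 (without WT-3) for C1qa, 1 (without R287Q-3) to 1730 (without P32L-3) for Col1a1, 1 to 3 for Hspa1b, 0 to 2 for Dbp, 0 to 1 for Pdk4, 1 (without WT-1) to 10 for Hba-a1, and 0 for spread and for anchor pairs.

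Mice with the same replicate number had a median r of -0.38 over 18 pairs, with 2 above 0.1. For 36 pairs with different numbers it was 0.23. Centring within groups ties these medians to each other, so they are not separate evidence. Same-number pairs of P32L and R287Q mice were all positive (r of 0.03, 0.16 and 0.43), and every other same-number pair was negative. Whether the numbers mark a pairing cannot be decided from these values. A replicate block gave 1 (Fos), 51 (C1qa, 5 of the 9 macrophage members among them), 1 (Col1a1), 0 (Dbp), 0 (Pdk4) and 3 (Hba-a1). Counted over named slopes and settings, 537 values kept their side of the threshold, 90 no longer passed and none changed sign. With 3 mice per group and 8 degrees of freedom, and with depth unknown, small slopes and low genes are the least certain.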

Other observations

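Some of the most variable genes belonged to none of the sets above. H2ac18, a histone H2A gene, had the largest SD (2.11). H2ac18 had 3.97, 34.7 and 30.4 TPM in the KO mice, 1.29, 6.15 and 0 TPM in the P32L mice, 1.53, 0 and 6.85 TPM in the R287Q mice and 65.4, 0.523 and 0 TPM in the WT mice. It was high in 1 WT mouse and listed at 0 in another, and likewise differed within each mutant group. Whether its reads can be told apart from those of other genes was not examined. Mss51, a muscle gene known as a target of myostatin signalling, had 90.1 TPM in WT-2 and 2.16 TPM in WT-1, with an SD of 1.42.

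Immune and liver-type transcripts also differed. S100a8, a calprotectin chain of neutrophils, reached 24.95 and 21.8 TPM in 2 R287Q mice and 1.13 TPM in the other, and it was the only one of 10 neutrophil markers to average 5 TPM. Igkc, the kappa light chain constant region, varied with an SD of 1.14. Mup22 and Mup10, major urinary protein genes, had r of 0.97, and 92.9% of the 50-base words of Mup22 occur in Mup10, so their reads may not be separable. Of the tendon markers, Chad, Angptl7 and Fmod had SDs of 0.72, 0.71 and 0.63, with WT-2 high for Chad (21.4 TPM) and Angptl7 (28.2 TPM).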
